A study of Mus musculus with 5 samples.

Results

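The genes described here encode DOT1L and subunits of the DOT1L and super elongation complexes, some of which are also fusion partners of MLL in leukaemia. They were taken by gene name from the FPKM tables (fragment counts adjusted for gene length and library size): Dot1l, Mllt10, Mllt6, Mllt3, Mllt1, Aff1, Aff4, Aff3, Ell and Ell2, 10 of the 31626 genes listed. Each name matched 1 row. In the GENCODE annotation Mllt6 and Aff4 share chromosome 11, and each of the other genes lies on a chromosome of its own. RNA sequencing had been done on 5 libraries of common myeloid progenitors of the C57Bl/6 strain, transformed with the MSCV-MN1-IRES-GFP retrovirus, which carries the leukaemia gene MN1 and a fluorescent marker. The 3 control libraries came from Mll1 flox/flox cells transduced with a control vector. The 2 knockout libraries came from cells transduced with Cre and labelled Mll1 -/-. All cells carried MN1, were grown in M3234 medium with serum and the cytokines IL3, IL6 and SCF, and were sorted on day 7. Nothing in the labels says that replicates were separate mice or cultures. The p-values therefore reflect the spread of these libraries alone, and that spread may be technical. A Cre control with wild type Mll1 was not analysed here, so the effects of Cre and of Mll1 loss cannot be told apart.

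DOT1L is the methyltransferase that marks a lysine in the globular core of histone H3 over transcribed genes. AF10 (Mllt10) and AF17 (Mllt6) bind it and aid the addition of further methyl groups. AF9 (Mllt3) and ENL (Mllt1) are paralogues whose YEATS domain reads acylated histones and whose tail binds either DOT1L or an AFF protein. The AFF proteins (AF4, LAF4 and AF5q31, from Aff1, Aff3 and Aff4) are the scaffolds of the super elongation complex, in which ELL, ELL2 and the kinase P-TEFb release paused RNA polymerase II. In leukaemia with rearranged MLL, the fusion proteins bring these complexes to HOXA9, MEIS1 and other target genes. In normal blood, MLLT3 is known as a regulator of stem cell maintenance and of erythroid and megakaryocytic fate.

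Mllt3 and its paralogue Mllt1 are the pair in which 1 gene fell and the other was not called, so the 250 bases before their annotated starts are shown. They come from RefSeq promoters of build GRCm38.p6, whereas the deposited values were made on mm9. Capitals mark CpG dinucleotides, the letters that the CXXC domain of MLL1 binds when unmethylated. RefSeq lists 2 starts for Mllt3, both on the minus strand of chromosome 4, and a single start for Mllt1, on the minus strand of chromosome 17.
Mllt3, first start, chr4:88033408-88033657: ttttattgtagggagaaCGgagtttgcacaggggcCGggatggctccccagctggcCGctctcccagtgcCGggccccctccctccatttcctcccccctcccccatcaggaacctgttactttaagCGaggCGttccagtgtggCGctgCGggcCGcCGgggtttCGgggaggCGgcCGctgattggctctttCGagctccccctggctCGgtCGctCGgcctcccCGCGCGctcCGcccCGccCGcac
Mllt3, second start, chr4:87806324-87806573: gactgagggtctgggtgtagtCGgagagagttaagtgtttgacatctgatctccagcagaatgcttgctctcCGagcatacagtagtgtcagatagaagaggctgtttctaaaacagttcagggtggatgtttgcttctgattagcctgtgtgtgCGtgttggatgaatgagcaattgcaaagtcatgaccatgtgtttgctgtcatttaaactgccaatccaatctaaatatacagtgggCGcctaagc
Mllt1, chr17:56935389-56935638: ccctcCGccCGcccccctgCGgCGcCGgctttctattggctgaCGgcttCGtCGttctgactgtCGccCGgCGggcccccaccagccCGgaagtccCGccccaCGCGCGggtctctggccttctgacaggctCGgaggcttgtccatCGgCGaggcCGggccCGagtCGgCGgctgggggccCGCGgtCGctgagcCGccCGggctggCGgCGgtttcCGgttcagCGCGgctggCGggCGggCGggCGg
The first Mllt3 window held 23 CpG (the letters CG, the same on both strands), and 13.3% of the 32851 promoters in the table had at least as many. Its second window held 4 CpG, a count reached by 62.2% of promoters. The Mllt1 window held 37 CpG, reached by 2.20%. An FPKM is summed over all transcripts of a gene, so it does not show which start was used. These counts describe the letters in the windows, and no binding was measured in these files.

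The Mll1 transcript itself was below every control in both Cre libraries. Its control values were 9.67, 7.28 and 7.19 FPKM, and its knockout values 6.22 and 5.32 FPKM. The log2 change was -0.41 (limma adjusted p = 0.158). Which exons are floxed is not stated in the labels, and a value summed over all exons may miss a deletion of some of them. Progenitor markers were present in every library. Cd34 lay at 587 to 685 FPKM with intact Mll1 and at 216 and 212 FPKM after Cre. Kit lay at 64.6 to 112 FPKM with intact Mll1 and at 61.0 and 57.1 FPKM after Cre (limma adjusted p = 0.266). The T and B cell markers Cd3g, Cd3e, Cd79a and Ms4a1 stayed below 1 FPKM in every library, while Lck, a kinase gene of T cells on the same list, lay at 4.77 to 7.24 FPKM. Control replicate 1 stood apart from the other controls in mature neutrophil markers. Summed over 8 such genes it held 6408 FPKM, against 792 and 1053 FPKM in control replicates 2 and 3 and 22414 and 20682 FPKM in the knockouts. Most of that sum came from S100a8 (11794 and 10986 FPKM in the knockouts) and S100a9 (10186 and 9271 FPKM). The granule genes Camp, Ngp, Ltf and Mmp8 overlapped between the groups, and Camp, Ngp and Ltf were higher in control replicate 1 than in either knockout. In bulk RNA, fewer cells of a type and less RNA per cell cannot be told apart. Where leaving out control replicate 1 changes a call of the complex genes, or of a gene named from the lists of related genes below, that value is given.

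Mllt3 was the only one of the 9 tested genes that passed the test with every library, and it was lower in both knockout libraries. Each change is given on the log2(FPKM + 1) scale, knockout minus control, tested with limma over all 11780 genes that had at least 1 FPKM in at least 2 libraries, and called at a Benjamini-Hochberg adjusted p under 0.05. That is 1 call among 9 genes, where 9.79% of all genes tested were called (5.97% lower and 3.82% higher), so the number of calls lies near the background. The median change of the 9 genes was 0.0058, beside -0.028 over all genes tested. Both knockout libraries lay below every control for 3 of the 9 genes and above every control for 1. Among all genes tested these shares were 29.4% and 22.9% (52.4% together), so these counts too lie near the background. Aff3 was below the filter and is described by its values.

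**Figure D1:**
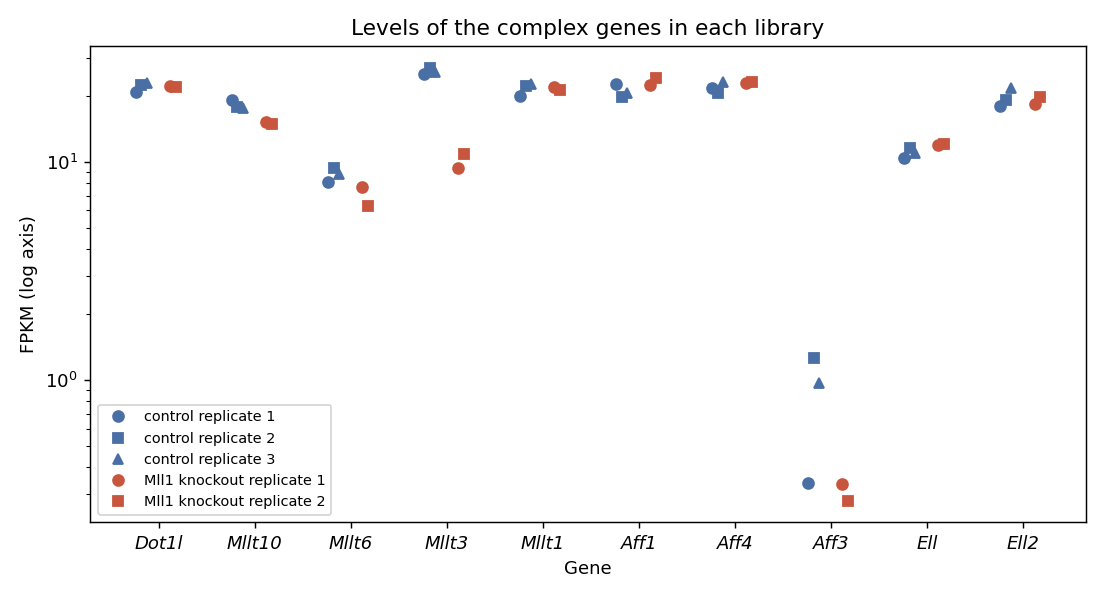
FPKM (log axis) of the 10 genes in each library, with controls in blue and Mll1 knockouts in red, and 1 symbol per replicate number. Mllt3 is separated by group, from 25.4 to 27.1 FPKM with intact Mll1 against 9.37 and 10.9 FPKM after Cre; Aff3 lies below 1.3 FPKM in every library.

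Levels are first given as FPKM, which are per length and can be compared between genes. In the controls Mllt3 had the highest level of the 10 genes, and its range did not overlap that of the next gene. Dot1l, Aff4, Mllt1, Aff1, Ell2 and Mllt10 followed, between 17.7 and 23.2 FPKM, and each overlapped its neighbour in that order. Ell (10.4 to 11.6 FPKM) and Mllt6 (8.10 to 9.34 FPKM) lay below them without overlap. Aff3 came last, at 0.340 to 1.26 FPKM. In the knockouts Mllt3 came at rank 8 of 10, below Ell and above Mllt6, with Aff1 and Aff4 at the top of the order. Apart from Mllt3 and Aff3, none of the 10 genes had a mean that differed by over 1.5 times between the groups.

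Mllt3, the gene of the YEATS adaptor AF9, measured 25.4, 27.1 and 25.8 FPKM in the 3 controls. The knockout libraries held 9.37 and 10.9 FPKM. Both knockout values were less than any control with a gap of 14.5 FPKM between the groups. The mean fell from 26.1 ± 0.880 FPKM (SD, n = 3) to 10.1 ± 1.09 FPKM (SD, n = 2), which is 2.57-fold lower. The log2 change was -1.29 (standard error 0.092, 95% interval -1.52 to -1.05), with a limma adjusted p of 0.00735. Among the 11780 genes tested it had rank 47 by p and rank 233 from the lowest log2 change. The exact permutation test over libraries (two-sided) gave p = 0.1, which is its minimum with 10 splits.

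Control replicate 1 lay beside the other controls in Mllt3, although its neutrophil markers did not. Without that library the log2 change was -1.30 (limma adjusted p = 0.00532). It was -1.19 without knockout replicate 1 (adjusted p = 0.109) and -1.39 without knockout replicate 2 (adjusted p = 0.102) and was not called in either case. Over all 14 alternatives the change lay between -1.39 and -1.04. The stem and progenitor genes Cd34 and Flt3 were also lower in the knockouts (Flt3 had control values of 93.3, 96.3 and 83.5 FPKM and knockout values of 9.51 and 7.69 FPKM), whereas the myeloperoxidase gene Mpo rose from 924 ± 331 FPKM (SD, n = 3) to 2447 ± 88.0 FPKM (SD, n = 2). The part that a different mix of cells had in the fall of Mllt3 was not tested.

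Mllt1, the gene of the paralogue ENL, was not called. It had control values of 20.03, 22.2 and 22.8 FPKM and knockout values of 22.0 and 21.5 FPKM. The knockout values lay within the control range. The log2 change was 0.0058, with a 95% interval of -0.21 to 0.22 and a limma adjusted p of 0.973.

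Of the adaptor paralogues, Mllt3 was the more abundant in every control and Mllt1 in both knockout libraries. Mllt3 made up 55.9%, 54.9% and 53.1% of the summed FPKM of the pair in the controls, and 29.9% and 33.7% in the knockouts. The sum itself was 45.4, 49.3 and 48.6 FPKM in the controls, compared with 31.4 and 32.4 FPKM in the knockouts, 33.3% lower on average. The log2 ratio of Mllt3 to Mllt1 was 0.33, 0.27 and 0.17 in the controls and -1.15 and -0.92 in the knockouts. It differed by -1.29 between the groups, with a 95% interval from the pooled SD of -1.62 to -0.96. This was 1 of 5 paralogue ratios compared; the exact permutation p was 0.1, and 0.333 after Benjamini-Hochberg adjustment over the 5 ratios, a design that cannot reach 0.05.

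**Figure D2:**
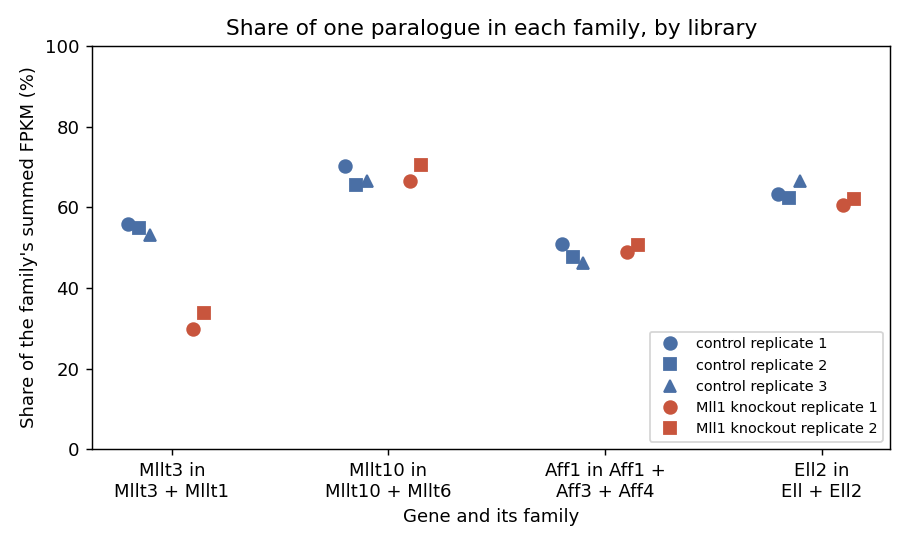
Share (%) of the summed FPKM of each family that 1 paralogue made up, by library, with controls in blue and Mll1 knockouts in red. The share of Mllt3 lies between 53.1% and 55.9% in the controls and at 29.9% and 33.7% in the knockouts. The shares of Mllt10 and Aff1 overlap between the groups. That of Ell2 lies between 62.3% and 66.5% in the controls and just below, at 60.6% and 62.1%, in the knockouts.

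Dot1l and its cofactor genes Mllt10 and Mllt6 were not called with every library. Mllt3 and Mllt1, whose proteins also bind DOT1L, are described above. Dot1l lay within its control range, and Mllt10 and Mllt6 lay below theirs. Dot1l measured 20.9, 22.5 and 23.0 FPKM with intact Mll1, against 22.4 and 22.1 FPKM after Cre. Its log2 change was 0.012, with a 95% interval of -0.18 to 0.21 (limma adjusted p = 0.934). Mllt10, the gene of the cofactor AF10, gave 19.2, 17.8 and 17.7 FPKM across the control libraries, and 15.3 and 14.99 FPKM in those given Cre. Both knockouts were below every control, by 2.36 FPKM at the nearest. The log2 change of -0.25 (95% interval -0.45 to -0.056) was not called over all genes (limma adjusted p = 0.101). Without control replicate 1 it was -0.22 and was called (adjusted p = 0.0474), in a setting where 29.8% of all genes were called (18.0% lower and 11.9% higher).

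In the GENCODE annotation Mllt10 overlaps Dnajc1, a co-chaperone gene on the opposite strand. The labels name a stranded kit, but whether the counting used strand is not given in the sources used here, so reads of the partner may enter the value of Mllt10. Dnajc1 had control values of 12.8, 12.1 and 12.2 FPKM and knockout values of 8.95 and 9.17 FPKM (log2 change -0.41, limma adjusted p = 0.0393). Its call was lost without control replicate 2, control replicate 3 or either knockout library (adjusted p = 0.101, 0.101, 0.319 and 0.309). Its part in the lower Mllt10 values was not tested.

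Mllt6, the gene of the paralogue AF17, measured 8.10, 9.34 and 8.85 FPKM with intact Mll1, against 7.68 and 6.29 FPKM after Cre. The knockouts again lay below every control, with 0.416 FPKM between the nearest values. The log2 change of -0.29 had a 95% interval of -0.59 to 0.0074 and a limma adjusted p of 0.175. It was -0.17 without knockout replicate 2, -0.42 without knockout replicate 1 and -0.19 with quantile normalization. Mllt10 and Mllt6 together summed to 27.3, 27.2 and 26.5 FPKM in the controls, compared with 23.0 and 21.3 FPKM in the knockouts, 18.0% lower on average. Their shares overlapped between the groups: Mllt10 made up between 65.6% and 70.4% of the sum over all 5 libraries. The log2 ratio of the pair differed by 0.043 between groups (95% interval -0.40 to 0.49, exact permutation p = 0.8).

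Neither of the abundant AFF scaffold genes was called. Aff1 gave 22.9, 19.9 and 20.8 FPKM across the control libraries, and 22.5 and 24.4 FPKM in those given Cre. Aff4, the scaffold of the widely expressed super elongation complex, had control values of 21.8, 20.7 and 23.2 FPKM and knockout values of 23.1 and 23.4 FPKM. The groups overlapped for both genes. Their log2 changes were 0.14 for Aff1 (95% interval -0.097 to 0.37, limma adjusted p = 0.370) and 0.081 for Aff4 (95% interval -0.12 to 0.29, adjusted p = 0.543).

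Aff3, which encodes the scaffold LAF4 first found in lymphoid cells, was near the lower limit of these tables. It measured 0.340, 1.26 and 0.968 FPKM with intact Mll1, against 0.335 and 0.281 FPKM after Cre. Control replicate 1 was thus level with the knockouts and not with the other controls. The absolute number of reads behind these values is unknown. Aff3 made up at most 3.01% of the summed FPKM of the AFF genes in any library, and that sum averaged 43.96 ± 1.81 FPKM (SD, n = 3) with intact Mll1 and 46.9 ± 1.54 FPKM (SD, n = 2) after Cre. The log2 ratio of Aff3 to Aff4 differed by -0.55 (95% interval -1.54 to 0.43, exact permutation p = 0.2; -1.17 with a pseudocount of 0.1, -0.21 with a pseudocount of 5 and -0.36 without control replicate 2), and that of Aff1 to Aff4 by 0.057 (95% interval -0.23 to 0.34, exact permutation p = 0.5).

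The elongation factor genes Ell and Ell2 were not called either. Ell gave 10.4, 11.6 and 11.02 FPKM across the control libraries, and 12.0 and 12.1 FPKM in those given Cre. Both knockouts were higher than every control, by 0.338 FPKM at the nearest, and the log2 change was 0.12 (95% interval -0.093 to 0.33, limma adjusted p = 0.391). Ell2, known for driving the switch to secreted antibody in plasma cells, had control values of 18.0, 19.3 and 21.9 FPKM and knockout values of 18.4 and 19.8 FPKM, which overlap. Its log2 change was -0.039 (95% interval -0.31 to 0.23, adjusted p = 0.838). The log2 ratio of Ell2 to Ell was 0.78 ± 0.13 in the controls (SD, n = 3) and 0.63 ± 0.063 in the knockouts (SD, n = 2), a difference of -0.16 (95% interval -0.48 to 0.17, exact permutation p = 0.2). Both knockout ratios (0.580 and 0.670) lay below every control, the nearest of which was 0.682.

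**Figure D3:**
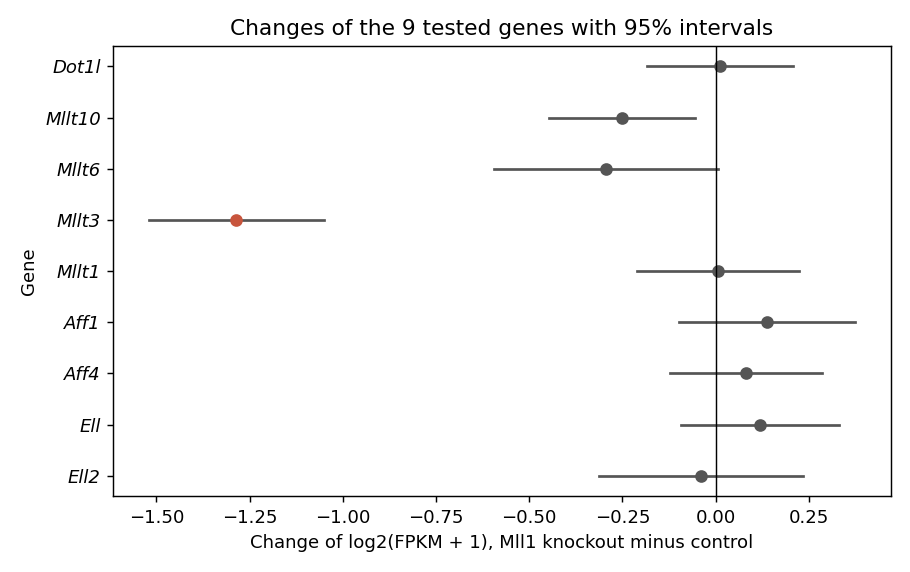
Change of log2(FPKM + 1) between Mll1 knockout (n = 2) and control (n = 3) for the 9 tested genes, with limma's 95% intervals as bars; red marks a limma adjusted p under 0.05. The interval of Mllt3 runs from -1.52 to -1.05, and the other 8 intervals lie between -0.59 and 0.37.

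For the 8 tested genes other than Mllt3, the outermost bounds of the 95% intervals were -0.59 (Mllt6) and 0.37 (Aff1). A change of 1 on the log2 scale therefore lay outside each of these 8 intervals. Smaller changes remain possible within them.

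The genes whose profile over the 5 libraries was nearest to that of Mllt3 are named as a description, by Euclidean distance between mean-centred log2(FPKM + 1) values. They were Akap7 (distance 0.112), Itga6 (0.141), Ccr2 (0.164), Srgap3 (0.187) and Il12rb2 (0.194). Itga6, an integrin subunit gene of stem and progenitor cells, measured 16.3, 18.7 and 17.2 FPKM with intact Mll1, against 6.66 and 6.83 FPKM after Cre. Akap7, which encodes an anchor of protein kinase A, gave 3.89, 4.28 and 3.70 FPKM across the control libraries, and 0.937 and 1.06 FPKM in those given Cre. Ccr2, a chemokine receptor gene of monocytes and their progenitors, had control values of 17.4, 19.2 and 15.9 FPKM and knockout values of 5.93 and 6.59 FPKM. In each of these 3 genes, control replicate 1 lay inside or beside the range of the other controls. They were chosen by likeness to Mllt3 over these same libraries, so this is no separate observation.

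Genes that act with these complexes were read from 7 lists, 53 genes in all, of which 50 passed the filter. Of these, 3 fell and 1 rose, 8.0% of the 50, beside 9.79% of all genes tested. The median change over the 50 genes was -0.038. Without control replicate 1, 8 fell and 7 rose, where 18.0% of all genes were called lower and 11.9% higher. Limma called 0 of the 50 when control replicate 2 was left out, where 45 of the 11780 genes tested were called higher and 66 lower. It also called 0 of the 50 when control replicate 3 was left out, where 70 were called higher and 134 lower. In both settings 13 of the 50 genes were at an unadjusted p under 0.05, beside 2908 and 3101 of all genes tested. With every library 16 of the 50 were at that level, beside 29.8% of all genes tested. The 4 calls below were thus lost in settings where few genes were called at all. Without knockout replicate 1 the log2 changes of these genes were -0.74 (Ctr9), 0.54 (Wdr61), -0.98 (Arhgap26) and -0.71 (Sept6). Without knockout replicate 2 they were -0.85, 0.48, -0.90 and -0.84 in the same order.

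The PAF1 complex, which travels with RNA polymerase II and is bound by MLL fusion proteins, held 2 of the 4 called genes, in opposite directions. That is 2 of its 6 genes tested (33.3%), beside 9.79% of all genes tested. Limma's unadjusted p was under 0.05 for 3 of the 6, beside 29.8% of all genes tested. Ctr9, which encodes the scaffold subunit of the complex, measured 26.9, 29.6 and 31.3 FPKM with intact Mll1, against 15.8 and 17.1 FPKM after Cre. Its log2 change was -0.79 (limma adjusted p = 0.0170). Wdr61, a subunit shared with the SKI complex of RNA decay, gave 63.8, 74.2 and 75.3 FPKM across the control libraries, and 99.4 and 103.5 FPKM in those given Cre (log2 change 0.51, adjusted p = 0.0429). The call of Wdr61 was lost with no filter on low values (limma adjusted p = 0.0782) and with no intensity trend (0.0518). The groups did not overlap for either gene. The other 4 subunit genes were not called; Paf1 itself averaged 40.3 ± 5.32 FPKM (SD, n = 3) with intact Mll1 and 43.9 ± 1.15 FPKM (SD, n = 2) after Cre. Both called genes kept their calls without control replicate 1 (limma adjusted p = 0.00660 for Ctr9 and 0.0110 for Wdr61). Neither kept its call without control replicate 2 or control replicate 3.

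A further list held the remaining AFF and ELL genes, genes of ELL partners and genes of the little elongation complex. Limma called 0 of its 6 tested genes with every library. An unadjusted p under 0.05 was found for 5 of them, beside 29.8% of all genes tested. Eaf1, which encodes a partner of ELL, had control values of 35.1, 33.7 and 33.5 FPKM and knockout values of 39.0 and 41.2 FPKM (log2 change 0.23, limma adjusted p = 0.107). Ice1, a subunit gene of the little elongation complex, which ELL joins at small nuclear RNA genes, measured 17.1, 16.7 and 15.96 FPKM with intact Mll1, against 13.2 and 13.4 FPKM after Cre (log2 change -0.30, adjusted p = 0.0683). Both knockout libraries lay outside the control range for all 6 genes, beside 52.4% of all genes tested. Without control replicate 1, 4 of the 6 were called, in a setting where 18.0% of all genes were called lower and 11.9% higher. Aff2 (log2 change 1.31, limma adjusted p = 0.00923) and Eaf1 (0.25, adjusted p = 0.0379) were called upward. Ice1 (-0.28, adjusted p = 0.0349) and its partner Ice2 (-0.37, adjusted p = 0.0365) were called downward.

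Genes of P-TEFb and of the small nuclear RNA particle that holds it inactive had no member called by limma among 7, with 2 at an unadjusted p under 0.05 (medians -0.11 for the list and -0.028 for all genes). Over all genes tested, 9.79% were called and 29.8% were at that unadjusted level. In lists as short as this one and those below, no call lies near that background. Cdk9, the kinase subunit gene, averaged 76.9 ± 8.08 FPKM (SD, n = 3) with intact Mll1 and 72.5 ± 4.69 FPKM (SD, n = 2) after Cre. The pairs of means below are given in the same order. Without control replicate 1, Hexim1 and Mepce, both of the inhibitory particle, were called downward (log2 changes -0.31 and -0.74, limma adjusted p = 0.0232 and 0.0103). In that setting 18.0% of all genes tested were called lower. The pausing and elongation factors NELF, DSIF and Supt6h had no call among 7 genes, 0 at an unadjusted p under 0.05 and a median of 0.12, with Supt5h at 80.2 ± 6.06 and 87.3 ± 0.695 FPKM and Supt4h1 at 53.0 ± 12.1 and 67.5 ± 2.26 FPKM. Enzymes of histone H2B ubiquitination, the mark that stimulates DOT1L, had no call among 5 genes, 2 at an unadjusted p under 0.05 and a median of -0.022. Of these, Ube2b stood at 106 ± 7.24 and 90.2 ± 0.102 FPKM and Ube2a at 88.7 ± 9.79 and 91.7 ± 1.53 FPKM. The YEATS domain genes Yeats2 and Yeats4 were not called (adjusted p = 0.266 and 0.610), at 10.1 ± 1.40 and 8.24 ± 0.0059 FPKM for Yeats2 and 54.0 ± 4.13 and 50.8 ± 3.45 FPKM for Yeats4. Yeats2 was called downward without control replicate 1 (log2 change -0.36, limma adjusted p = 0.0271).

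MLL fusion partners that belong to neither complex, mostly cytoplasmic proteins, had 2 genes that fell among 17 tested, 11.8%, beside 5.97% of all genes tested that were called lower, and a median of -0.053. The list had 2 genes called lower and 4 called higher without control replicate 1, beside 18.0% and 11.9% of all genes tested. The 4 higher genes were Sept5 (log2 change 1.38, limma adjusted p = 0.00627), Gas7 (0.69, adjusted p = 0.0103), Cbl (0.32, adjusted p = 0.0359) and Foxo3 (0.24, adjusted p = 0.0489). Arhgap26 encodes a GTPase-activating protein for RHOA. Its name matched 3 rows, and only the row with its GENCODE gene ID is described here. That row gave 13.2, 15.7 and 14.4 FPKM across the control libraries, and 7.24 and 6.78 FPKM in those given Cre. The log2 change was -0.94 (limma adjusted p = 0.0149). Sept6, which encodes a septin of the cytoskeleton, had control values of 44.8, 54.2 and 52.5 FPKM and knockout values of 27.6 and 30.4 FPKM (log2 change -0.78, adjusted p = 0.0231; 0.0526 with no filter on low values). The groups did not overlap for either gene. The most abundant members, Gmps and Sept9, were not called, at 104 ± 6.74 and 119 ± 5.97 FPKM for Gmps and 99.0 ± 9.64 and 113 ± 2.92 FPKM for Sept9.

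**Figure D4:**
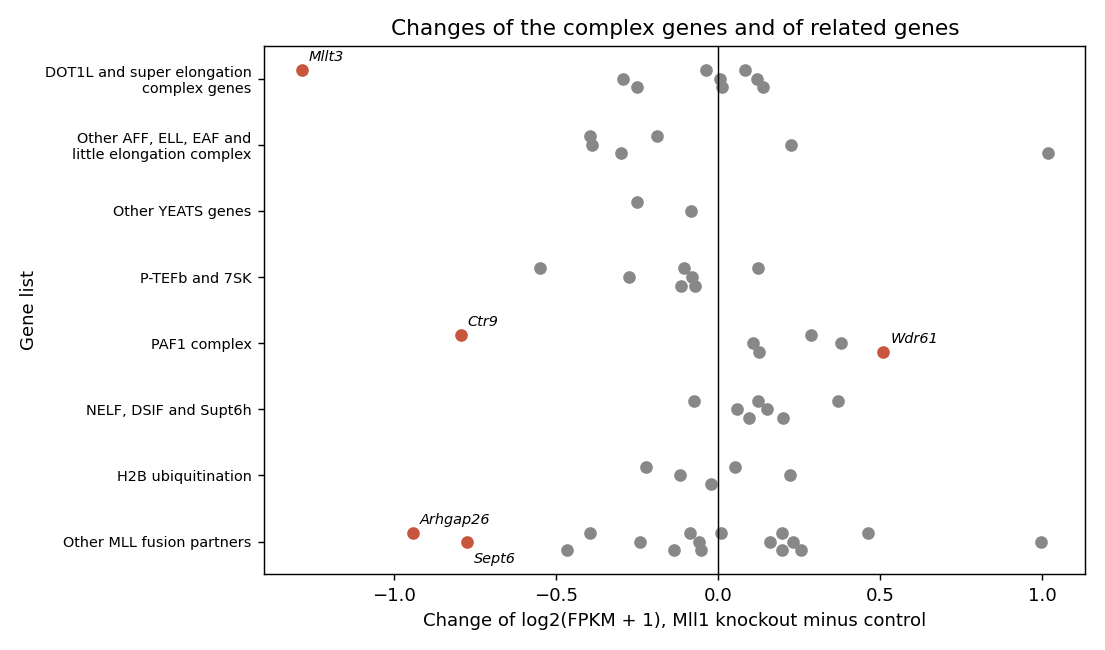
Change of log2(FPKM + 1) between Mll1 knockout (n = 2) and control (n = 3) for the tested genes of each list, 1 point per gene (vertical offsets only separate the points); red marks a limma adjusted p under 0.05. Mllt3 has the lowest value of all genes drawn, at -1.29, and the other called genes are Arhgap26 (-0.94), Ctr9 (-0.79), Sept6 (-0.78) and Wdr61 (0.51).

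Markers of other cell types and of the progenitors themselves also differed between the groups. Their counts of calls stand beside 3.82% of all genes tested called higher and 5.97% called lower. Of the 8 mature neutrophil genes, 1 was called higher (Lcn2) and none was at 0 in every library. The change was positive in 7 of them and negative in 1. S100a8 and S100a9 had the log2 changes 3.82 and 3.79 and were not called (limma adjusted p = 0.0743 and 0.0836). Of the 8 progenitor genes, 2 fell (Cd34 and Flt3) and 1 rose (Mpo). The sum of all 8 ranged from 2977 to 3867 FPKM in the controls, compared with 4980 and 5330 FPKM in the knockouts. Most of that sum came from Mpo, Ctsg and Elane, each above every control in both knockouts. The other 5 (Cd34, Kit, Cebpa, Myb and Flt3) were each below every control in both knockouts. Among all genes tested, 22.9% lay above every control and 29.4% below. Mast cell and basophil genes had 2 of 4 tested that rose, Mcpt8 and Hdc, and their sum over 5 genes ranged from 668 to 840 FPKM in the controls, compared with 1267 and 1293 FPKM in the knockouts. Erythroid genes also had 2 that rose of 5 tested, Klf1 and Gata1, and their sum over 6 genes ranged from 21.4 to 47.4 FPKM in the controls, compared with 36.9 and 35.4 FPKM in the knockouts. Summed macrophage genes ranged from 34.8 to 89.0 FPKM and summed megakaryocyte genes from 31.9 to 67.8 FPKM over the 5 libraries, with no call in either (0 of 3 and 1 of 3 genes at an unadjusted p under 0.05). Lymphoid and stromal sums stayed below 8 FPKM. Without control replicate 1, each of the 8 marker genes called above kept its call. Cd34 and Mcpt8 lost theirs without either knockout library (adjusted p from 0.118 to 0.170) and Flt3 without knockout replicate 2 alone (0.0517), whereas Lcn2, Mpo, Hdc, Klf1 and Gata1 lost theirs without any 1 of the other 4 libraries (0.0753 to 0.332). The part of these differences in the values of the complex genes was not tested.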

How the data were processed

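RNA of 5 libraries (3 control, 2 Mll1 knockout) was measured by stranded mRNA sequencing, per the labels' protocols. The deposited values are FPKM, computed by the authors. Cuffdiff, SAMtools, GSNAP, CASAVA 1.8.2 and the build mm9 appear in the submitters' processing notes. Not given in the sources used here are the annotation and the handling of strand and of reads that map to several places. Absolute depth is unknown; from the commonest ratio of values under 2 FPKM, 1 read was worth between 0.98 and 1.018 of its worth in control replicate 1. In 16 of 31626 genes a library held 999999999, taken as a failed estimate, and these genes were left out. The 11780 genes that reached 1 FPKM in 2 or more libraries were tested on log2(FPKM + 1) with limma 3.58.1 (R 4.3.3), a scale that understates changes of low genes, with an intensity trend and Benjamini-Hochberg adjustment; 95% intervals are limma's. Paralogue ratios were tested by two-sided exact permutation. The code was tested on simulated data. GENCODE M21 (26622 IDs matched) gave overlaps and current symbols, and RefSeq the promoters (10 of 10 genes matched). The genes and lists were chosen with earlier results of these data known. Genes named beside the 10 are Mll1, every called gene and the 2 most abundant genes of each list, the 5 genes nearest in profile to the gene with the smallest p, and markers; others were named after their values were seen. Some genes that this rule names are not reported here. Alternatives covered the pseudocount, filter, scaling, empirical Bayes step, replicate block, threshold and each library left out.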

Additional observations from a re-analysis of the deposited data

How the results depend on the processing

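The log2 change of Mllt3 kept its sign in 14 of 14 alternatives and its call in 11; it lost the call with the replicate number as a block and without either knockout library. The Mllt3 to Mllt1 ratio kept its sign in 8 of 8 alternatives, between -1.41 and -1.05. No other gene of the 10 changed its call except Mllt10, and the cause of these changes was not tested. With the replicate block, limma called 0 of the 9 genes (Mllt3 at -1.29, adjusted p = 0.0662; 1 at an unadjusted p under 0.05), 0 of 50 pathway genes (5 at that level), and 12 higher and 43 lower of all genes, with 2537 at an unadjusted p under 0.05. The numbers do not pair the samples by any label. Same-numbered deviations from the group mean correlated at 0.037 and 0.012 across genes. Those of control replicate 3 and knockout replicate 2 correlated at 0.034. The deviations of 2 knockouts mirror each other, so these values cannot tell whether libraries were paired. The number of the 10 genes called ran from 0 to 2 as each library was left out, that of pathway genes from 0 to 15, and those of all genes from 0 to 1398 higher and from 0 to 2118 lower. The highest counts came without control replicate 1 and the counts of 0 over all genes without knockout replicate 2, where 1669 genes had an unadjusted p under 0.05; leaving out a knockout library leaves 1 sample in that arm, assumed to vary like the controls. With no filter on low values, 238 genes were higher and 259 lower, and 2 pathway genes were called. At an adjusted p under 0.1, 1021 genes were higher and 1414 lower, with 9 pathway genes. Changes near 0 turned sign. As each library was left out, Dot1l ran from -0.027 to 0.039, Mllt1 from -0.047 to 0.041, Ell2 from -0.099 to 0.036 and the Mllt10 to Mllt6 ratio from -0.069 to 0.15; Ell2 also turned to 0.0048 with quantile normalization and 0.036 with the replicate block, and that ratio to -0.0035 with a pseudocount of 5. Higher genes were 39.0% of the calls as tested and 49.0% after median-ratio scaling.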

Other observations

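Low-expressed relatives of the AFF family showed control replicate 1 nearer to the knockouts than to the other controls. Aff2, which encodes the X-linked AFF protein, measured 1.73 FPKM in control replicate 1, 0.416 and 0.582 FPKM in the other controls, and 2.51 and 2.91 FPKM after Cre (limma adjusted p = 0.106). Aff3 had the opposite order, as given above. The septin gene Sept5 measured 2.07, 0.348 and 0.413 FPKM with intact Mll1, against 2.68 and 2.52 FPKM after Cre (limma adjusted p = 0.175). Both were called higher without control replicate 1, Aff2 with an adjusted p of 0.00923 and Sept5 with one of 0.00627. These genes were picked after their values had been seen.

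Rtf1, a PAF1 complex gene also picked in this way, had control values of 30.6, 28.8 and 32.2 FPKM and measured 31.1 FPKM in knockout replicate 1, but 51.3 FPKM in knockout replicate 2.

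The deposited tables spell the septin genes as calendar dates, so Sept5, Sept6 and Sept9 were found by their Ensembl gene IDs.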
